A study of Mus musculus with 2 samples.

Results

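Fox, Sox, Gata and Tbx genes encode families of DNA-binding transcription factors that direct cell fate. The genes described here are the 74 autosomal protein-coding genes of GENCODE vM21 (mouse genome build mm10, GRCm38) whose symbols belong to these families, of 20807 autosomal protein-coding genes in all. They comprise 41 Fox genes (forkhead factors), 17 Sox genes (factors with an HMG box), 5 Gata genes (zinc-finger factors that bind GATA motifs) and 11 Tbx genes (T-box factors). Membership was set by symbol alone, and Sox2 and Tbx3, which belong to the pluripotency network of embryonic stem cells, were left out. The DNA came from E14 mouse embryonic stem cells, an established line grown in serum with LIF, with no treatment and no second genotype. The replicates are separate passages of this line, so that every comparison below is between genes and none is between conditions.

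SCoTCH-seq links the strands of each DNA duplex and sorts every CpG into 1 of 9 states, written with the plus strand first, where C is unmodified cytosine, M is 5-methylcytosine (mC) and H is 5-hydroxymethylcytosine (hmC). In MC/CM, mC on a single strand faces an unmodified cytosine (hemimethylation). In HC/CH, hmC faces an unmodified cytosine, in HM/MH it faces mC, and in HH it lies on both strands. The modified share is the percentage of calls that were not CC.

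As background, methylation is copied onto the new strand after replication, and TET enzymes oxidise mC to hmC. Genes of developmental regulators are known to lie in wide CpG-rich stretches that stay unmethylated in embryonic stem cells and are often bound by Polycomb complexes. Bodies of transcribed genes usually carry dense mC with some hmC. No RNA was measured in these libraries, so the expression of the 74 genes and the markers of the cell line were not examined.

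Replicate 1 covered 13366464 autosomal CpG sites at a median of 10 calls, and replicate 2 covered 4882356 at a median of 6. Each gene was divided into the promoter (1 kb either side of the gene start), the upstream region (5 kb to 1 kb before the start) and the body (the rest of the gene). Replicate 1 gave 24826 calls in the promoters, 31608 upstream and 348557 in the bodies. Replicate 2 gave 5566, 7486 and 74995, at a median of 12 sites per promoter against 41 in replicate 1. Replicate 2 therefore limits the precision, most of all at promoters. Of the promoter CpG sites of the members, 36.8% were covered in replicate 1 and 10.8% in replicate 2. Upstream the shares were 64.6% and 23.8%. Promoter values thus describe the covered sites only, which are a minor part of each promoter in most members. Genes with at least 10 CpG sites and 50 calls in each replicate were tested with limma against the median gene of the same replicate, over all autosomal protein-coding genes. A gene was called higher or lower where the adjusted p was under 0.05 and both replicates lay on the same side. Where a pair of percentages is given, replicate 1 comes first.

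At promoters set by the gene start the families were modified about as often as other genes, but with a promoter around every annotated transcript start they were more often called lower, 39 of 58 members against 33.4% of all genes. In that setting the reference moved, since the median gene lay at 37.7% and 41.4%. The median over members, by the mean of the replicates, also rose, from 8.93% to 17.6%. Many members have a single annotated start, so their promoter was unchanged. By gene start the median modified share was 7.86% and 10.0% over the 46 genes tested, against 8.73% and 9.71% over all genes tested. Of the 46 genes, 13 (28.3%) were called lower, against 26.1% of all genes, and 8 (17.4%) higher, against 24.6%. All promoters that were not tested had fewer than 10 covered sites in replicate 2. With only the sites covered in both replicates, 6 of 32 members were lower, against 32.8% of all genes then tested, and 10 higher, against 31.9%. With promoters of 500 bp either side limma called 5 of 14 higher, against 21.9% of all genes, and 0 lower, against 14.8% (1 lower at an unadjusted p under 0.05 and 0 by Fisher's exact test).

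Sequence from both ends of this range is shown to let the CpG content be seen beside the modification. Each stretch is the 250 bases that end just before the gene start (GRCm38), read 5′ to 3′ along the coding strand, with CpG sites in capitals. The first pair comes from the least modified promoters tested, and the second pair from the most modified ones that had a covered CpG in the stretch.
Foxo1, chr3:52268086-52268335, plus strand: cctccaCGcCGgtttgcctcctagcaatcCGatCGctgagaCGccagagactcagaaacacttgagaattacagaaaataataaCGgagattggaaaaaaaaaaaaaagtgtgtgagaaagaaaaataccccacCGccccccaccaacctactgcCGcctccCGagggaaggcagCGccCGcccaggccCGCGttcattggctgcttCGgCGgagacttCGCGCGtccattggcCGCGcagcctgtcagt
Sox12, chr2:152398064-152398313, minus strand: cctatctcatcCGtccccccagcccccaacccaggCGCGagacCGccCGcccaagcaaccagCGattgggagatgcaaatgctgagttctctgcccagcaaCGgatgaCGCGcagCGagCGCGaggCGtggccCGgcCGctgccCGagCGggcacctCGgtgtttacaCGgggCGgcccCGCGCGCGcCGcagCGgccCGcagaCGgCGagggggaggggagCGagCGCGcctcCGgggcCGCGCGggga
Tbx6, chr7:126781233-126781482, plus strand: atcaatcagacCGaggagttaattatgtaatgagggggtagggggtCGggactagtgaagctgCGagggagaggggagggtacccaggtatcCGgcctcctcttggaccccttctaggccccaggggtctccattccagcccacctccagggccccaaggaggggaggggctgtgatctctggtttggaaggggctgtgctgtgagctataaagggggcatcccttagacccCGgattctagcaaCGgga
Sox6, chr7:116038797-116039046, minus strand: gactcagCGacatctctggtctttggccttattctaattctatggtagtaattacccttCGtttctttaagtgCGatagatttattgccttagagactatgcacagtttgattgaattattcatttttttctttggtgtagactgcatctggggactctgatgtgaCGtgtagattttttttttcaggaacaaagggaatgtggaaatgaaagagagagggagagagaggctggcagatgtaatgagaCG

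The stretches before Foxo1 and Sox12 hold 20 and 36 CpG sites, and those before Tbx6 and Sox6 hold 6 and 5. Only some of these sites were covered. Replicate 1 covered 5 of the 20 sites at Foxo1 and 9 of the 36 at Sox12. The replicates covered 4 and 2 sites at Tbx6 and 4 and 3 at Sox6. In replicate 1, 0 of 51 calls in the Foxo1 stretch and 0 of 54 in the Sox12 stretch were modified, which allows shares of up to 5.88% and 5.56% at the covered sites. Replicate 2 covered no site in either. In the Tbx6 stretch 8 of 28 calls were modified in replicate 1 and 5 of 16 in replicate 2, and in the Sox6 stretch 22 of 55 and 9 of 16. In these 4 stretches the CpG-rich pair was unmodified where it was covered and the CpG-poor pair partly modified, but other promoters went the other way. Gata5, among the 4 most modified promoters tested, holds 6.75 CpG per 100 bp of promoter and Foxh1, called lower, 2.25.

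The least modified promoters tested belonged to Foxo1, Sox12, Foxf1 and Foxm1. Foxo1, a forkhead factor downstream of insulin signalling, had modified shares of 0.541% and 1.2% (log odds -2.31 ± 0.36 (SE) from the median gene, adjusted p = 0.000891). Sox12, of the SoxC group, had 1.55% and 0.758% (adjusted p = 0.00141), and Foxf1, a regulator of lateral mesoderm, had 0.331% and 3.45% (adjusted p = 0.00553). Foxm1, which drives genes of mitosis, had 3.96% in replicate 1 and none of 72 calls in replicate 2, which allows up to 4.17%. In all 4 genes both replicates lay below the median gene.

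Genes were also grouped by known role, each gene in at most 1 list. The mesoderm and heart list held 13 genes (Tbx1, Tbx2, Tbx4, Tbx5, Tbx6, Tbx15, Tbx18, Tbx20, Foxc1, Foxc2, Foxf1, Foxf2 and Foxl1), and the endoderm list 7 (Foxa1, Foxa2, Foxa3, Sox7, Sox17, Gata4 and Gata6). The list of neural tissue and neural crest held 12, including Sox1, Sox8, Sox9, Sox10, Sox21, Foxb1, Foxd3 and Foxp2. The list called broadly expressed here also takes in genes expressed in stem cells. It held 15 (Foxo1, Foxo3, Foxk1, Foxk2, Foxp1, Foxm1, Foxj2, Foxj3, Foxn2, Foxn3, Sox4, Sox11, Sox12, Sox13 and Sox15). Many genes have roles in several tissues, and Gata5 (heart and endoderm) and Foxn4 (retina and spinal cord) are among the members in none of the lists.

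By role, the lower calls included 4 of 10 broadly expressed genes (Foxo1, Sox12, Foxm1 and Foxp1) and 4 of 9 genes of neural tissue and neural crest (Foxd3, Sox1, Sox9 and Foxb1), against 26.1% of all genes. By Fisher's exact test 5 and 4 of them were lower, against 40.3% of all genes. In both lists limma called 0 genes higher, against 24.6% of all genes, with 0 at an unadjusted p under 0.05, against 27.8%, and 0 by Fisher's exact test, against 20.6%. Foxd3, which keeps crest and epiblast cells undifferentiated, had 3.95% and 4.07%, and Sox1, a marker of neural precursors, had 5.01% and none of 97 calls (up to 3.09%). The other genes called lower were Foxf1, Foxn4, Foxh1, Tbx2 and Gata6.

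The endoderm list went the other way at 3 of 5 promoters tested, which were called higher, against 24.6% of all genes. Foxa2, a pioneer factor of endoderm and floor plate, had 30.0% and 25.4% (adjusted p = 0.00846). Sox17, which specifies endoderm, had 17.8% and 25.9% (adjusted p = 0.0438), and its relative Sox7 had 17.3% and 27.1% (adjusted p = 0.0464). Gata6, a factor of primitive endoderm, was lower with 2.78% and 4.92%, and Foxa3 had 15% and 24% without passing the test (adjusted p = 0.0852).

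The highest promoters tested were those of Foxs1, Tbx6, Sox6 and Gata5. Foxs1 had 69.5% and 80.5% (log odds 3.34 ± 0.32 (SE) from the median gene, adjusted p = 5.58e-05). Tbx6, a factor of presomitic mesoderm, had 30.4% and 45.5%, Sox6, a SoxD factor of muscle and erythroid cells, 33.1% and 34.6%, and Gata5, a factor of heart and endoderm, 26.7% and 36.1%. Gata3, a regulator of T cells, was also higher with 16.3% and 33.6%. Foxs1 stood apart from the rest, since no other promoter tested exceeded 33.1% in replicate 1.

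Several promoters with too few sites in replicate 2 were modified nearly throughout. Tbx19, the pituitary factor that activates Pomc, had 88.8% and 88.2% at 22 and 3 sites. Foxi1 had 86.7% and 100%, Foxn1, which thymic epithelium requires, 86.4% and 94.1%, and Tbx10 86.7% and 97.6%. Foxq1 had 84.1% and 82.4%, Foxj3 85.2% and 84.2% and Gata4, a factor of heart and endoderm, 81.8% and 80.0%. These promoters were poor in CpG sites, with 0.80 CpG per 100 bp at Foxj3 and 1.6 at Tbx19, against 11.5 at Sox12 and 10.7 at Foxo1. Other promoters without a test were rich in CpG sites, such as Sox11 (10.8 CpG per 100 bp), Foxf2 and Foxc1 (8.35 each). Their modified shares are not given here, so the promoters named above do not stand for all untested ones.

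The choice of start bears on these values. The gene start is that of the outermost transcript, and with a promoter around every annotated transcript start the share fell to 38.9% and 50.4% at Foxj3 (10 starts) and 44.3% and 53.2% at Gata4 (5 starts). Tbx19 stayed at 90.7% and 93.2%, and Foxi1, Foxn1, Foxq1 and Tbx10 have a single annotated start. With every start counted, 7 members were called higher, against 31.4% of all genes, and the median gene lay at 37.7% and 41.4%.

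**Figure D1:**
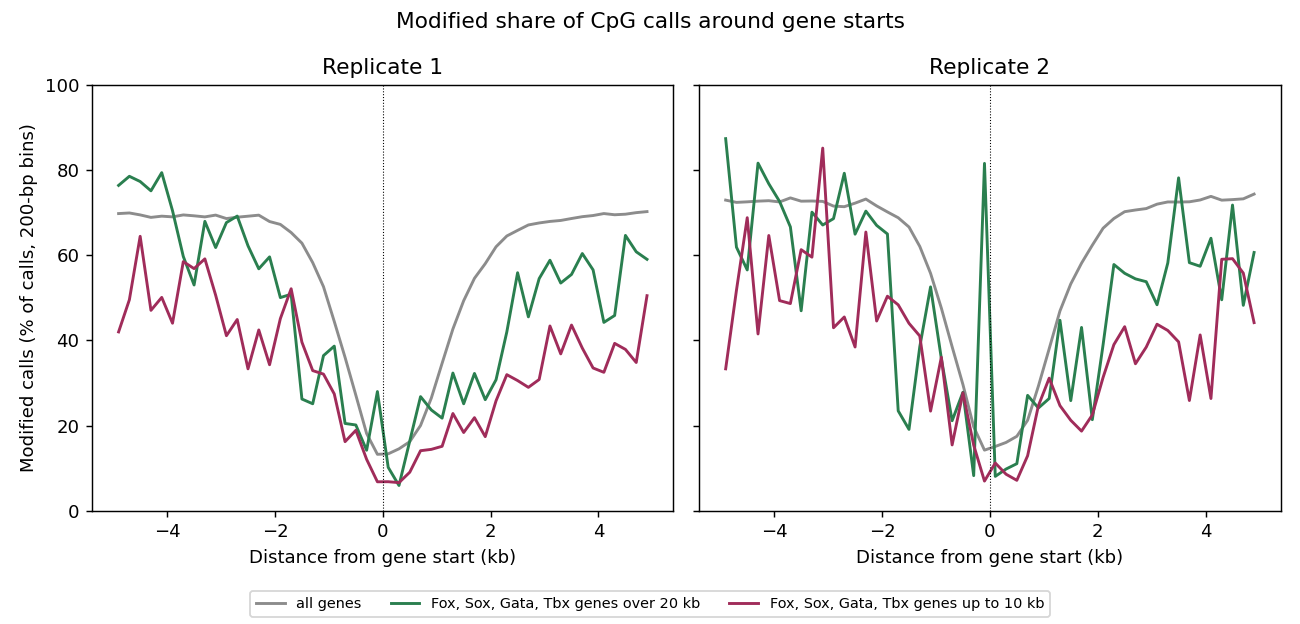
Modified calls as a percentage of all CpG calls in 200-bp bins against the distance from the gene start in kb, for replicate 1 (left) and replicate 2 (right). Lines are all autosomal protein-coding genes (grey) and members over 20 kb (green) or up to 10 kb (red) long. In replicate 1 both lines of members lie below all genes from 1 kb past the start onward. The lines of replicate 2 scatter more, and its isolated peak just before the start rests on 7 CpG sites. Bins follow distance alone and run beyond the end of short genes.

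From 1 to 5 kb past the start the families were less modified than all genes in every bin of 200 bp. That held for 20 of 20 bins in each replicate, as the profile around gene starts shows. The bins follow distance alone, so in short members, such as Foxd4 of 1.96 kb, they run beyond the gene end. From 5 to 1 kb before the start they were lower in 20 of 20 bins in replicate 1 and 19 in replicate 2. Members over 20 kb were lower there in 13 and 15 of 20, and farthest out, 4900 bp before the start, they had 76.4% and 87.4% against 69.8% and 73%. In the bin centred 1900 bp past the start, 22% and 24% of calls were modified over the members, against 58% and 62.4% over all genes. In the bin centred 2900 bp before it the shares were 48.4% and 45.8% against 68.6% and 71.5%. At 100 bp past the start they were 7.51% and 10.2% against 13.4% and 15.1%. That gap to other genes was smaller than in the bins at 1900 bp past and 2900 bp before. These bins pool the calls of all members and were not tested.

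In the upstream region, 35 of 60 genes tested (58.3%) were called lower in modified share, against 32.3% of all genes tested, and 8 (13.3%) higher, against 26.2%. The median was 54.7% and 58.3%, against 73.5% and 78.2% over all genes. By Fisher's exact test in each replicate, which holds counting error only, 28 were lower in both, against 22.2% of all genes, and 18 higher, against 47.9%. That test also has another reference than limma, the pooled calls of all other genes in place of the median gene.

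All 11 genes tested of the mesoderm and heart list were called lower upstream, against 32.3% of all genes, with medians of 34.4% and 29.4%, and 8 of them were lower by Fisher's exact test, against 22.2%. Foxf1 had 20.3% and 25.3%, and Tbx20, a heart factor, had 25.3% and 26.5% (log odds -2.17 ± 0.20 (SE) from the median gene, adjusted p = 2.5e-05). Tbx1, the T-box gene of the pharyngeal arches, had 37% and 27.9%, and Tbx6 had 34.4% and 28.1% although its promoter was above the median gene. Foxc1 and Foxc2, which pattern somites and vessels, had 35.5% and 59.4%, and 30.5% and 67.7%, so their replicates lay far apart. Gata5, which is in no list, was higher upstream with 85.9% and 86.3% (adjusted p = 0.0285).

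Of the neural list 6 of 9 genes were lower and Sox8 was higher. Foxd3 (chr4:99656299-99658622) was the lowest member upstream, with 10.5% and 8.82% of 1040 and 272 calls (log odds -3.35 ± 0.22 (SE) from the median gene, adjusted p = 6.74e-06). Of the endoderm list 5 of 6 were lower. Among them Gata6 had 21.7% and 26.7% and Foxa1, a pioneer factor of liver and other endoderm organs, 18.9% and 37.6%. Sox17 was the gene of this list called higher, with 84.5% and 88.9%. Gata2, a factor of blood stem cells, had 19.7% and 22.7%. Of the broadly expressed genes 4 of 11 were lower and 1 higher, against 32.3% and 26.2% of all genes. By Fisher's exact test 4 of them were lower and 5 higher, against 22.2% and 47.9%.

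**Figure D2:**
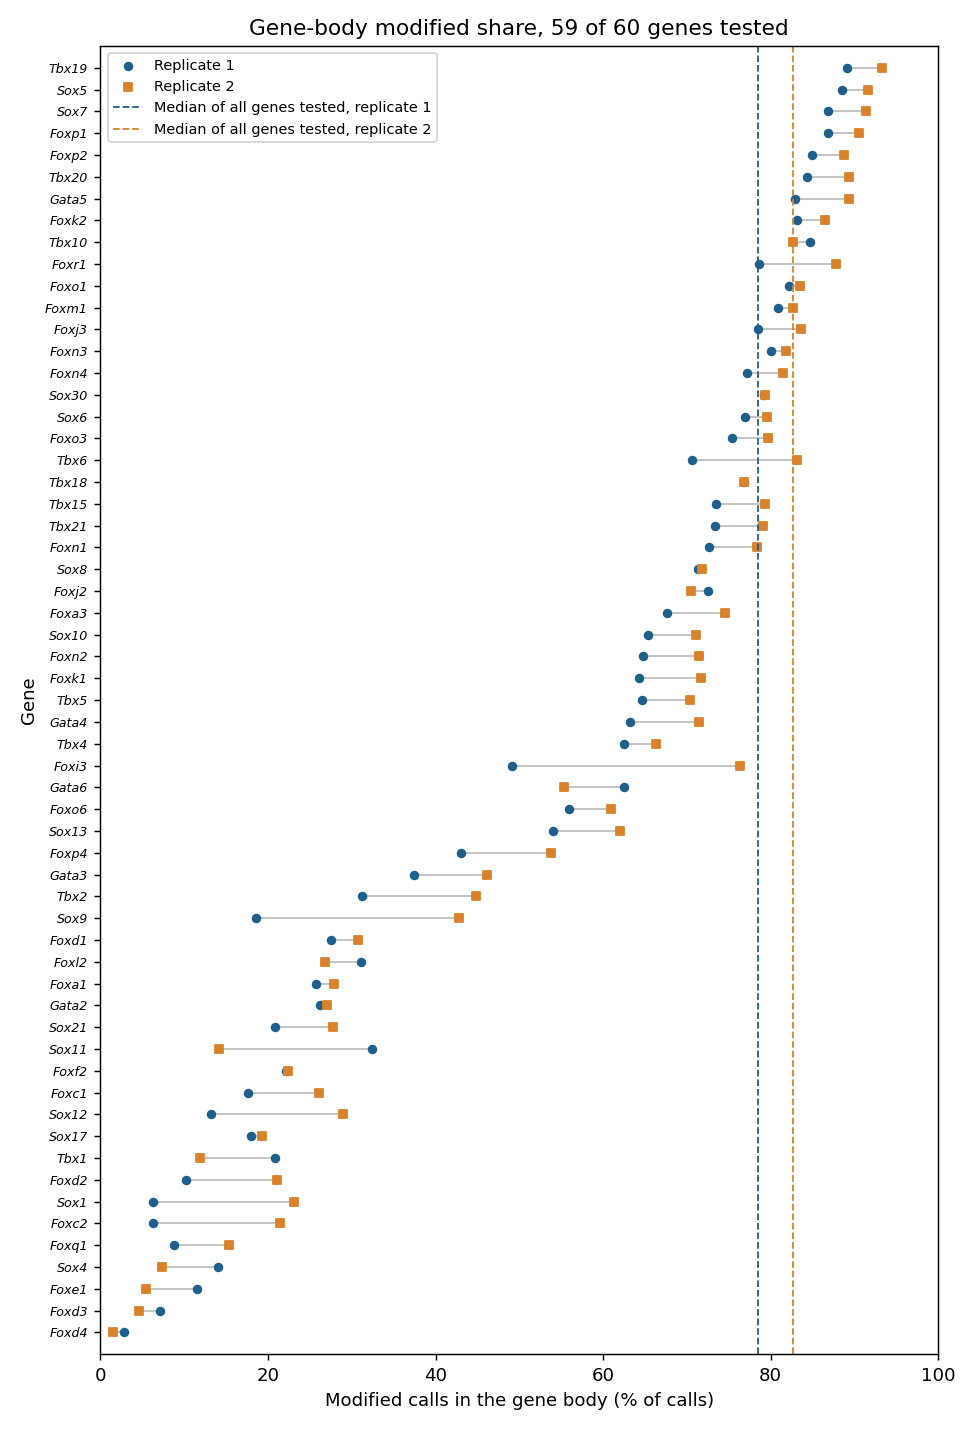
Modified calls as a percentage of all calls in the gene body for 59 of the 60 genes tested, ordered by the mean of the replicates (circles, replicate 1; squares, replicate 2; a grey line joins them). Dashed lines mark the medians of all genes tested (78.5% and 82.7%), and most members lie to their left.

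In the gene bodies, 41 of 60 members tested (68.3%) were called lower in modified share, against 35.9% of all genes tested, and 7 (11.7%) higher, against 35%. The median was 63.7% and 70.8%, against 78.5% and 82.7% over all genes. The plot of body values by gene shows a long tail of nearly unmodified genes. The genes without a test, which have few covered body sites, were Foxa2, Foxb1, Foxb2, Foxe3, Foxf1, Foxh1, Foxi1, Foxi2, Foxj1, Foxl1, Foxs1, Sox14, Sox15 and Sox18. Across the 60 genes the replicates gave a Pearson r of 0.969, a description with the filters shared by both.

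The lowest bodies belonged to Foxd4, Foxd3, Foxe1 and Sox4. Foxd4 had 2.82% and 1.49%, and Foxd3 had 7.14% and 4.62%. Foxe1, the thyroid forkhead gene, had 11.5% and 5.48%, and Sox4, a SoxC factor of many progenitors, had 14.1% and 7.38%. Their odds of modification were 0.00729 to 0.0343 times those of the median gene (adjusted p 1.97e-19 to 2.18e-16). Neither replicate of these genes came near the values of the median gene.

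Several neural and mesodermal regulators were also far below the median gene. Tbx1 had 20.8% and 11.9%. Sox1 had 6.3% and 23.1%, Foxc2 6.3% and 21.4% and Sox9, a factor of cartilage and crest, 18.5% and 42.9%, with wide gaps between the replicates. Foxc1 had 17.7% and 26.1%. Of the neural list 8 of 9 genes were lower and Foxp2 was higher, against 35.9% and 35% of all genes, with medians of 20.9% and 30.8%. Of the mesoderm and heart list 8 of 11 were lower and Tbx20 was higher.

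SoxC genes, which act in progenitors of many tissues, were all called lower, with 32.4% and 14.2% at Sox11 and 13.2% and 29% at Sox12 beside Sox4. Of the Gata genes 4 of 5 were lower. Gata2 had 26.2% and 27.1%, Gata3 37.4% and 46.1%, Gata4 63.2% and 71.4% and Gata6 62.6% and 55.4%, while Gata5 had 82.9% and 89.3% and did not pass the test (adjusted p = 0.0838). Of the Tbx genes 5 of 11 were lower and 2 higher. Of all genes 35.9% were lower and 35% higher.

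The order of the regions differed between genes. Sox17 had 84.5% and 88.9% upstream and 18% and 19.3% in the body. Foxq1 had 93.1% and 94.6% upstream, 84.1% and 82.4% around its annotated start and 8.73% and 15.4% in the body. Sox7 was the reverse, with 40.2% and 46.4% upstream and 86.9% and 91.3% in the body. In Foxq1 the little modified stretch thus lay inside the gene and not at its annotated start.

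The highest bodies belonged to Tbx19, Sox5, Sox7 and Foxp1. Tbx19 had 89.1% and 93.3% (odds ratio 2.48, adjusted p = 4.82e-08). Sox5, a SoxD gene of cartilage and neurons that spans 954 kb, had 88.5% and 91.6% (odds ratio 2.2, adjusted p = 3.04e-20). Foxp1, with roles in lymphocytes and heart, had 86.8% and 90.6%. Its paralogue Foxp2, known for a role in speech and motor circuits, had 85% and 88.7%, and Tbx20 and Foxk2 were the remaining higher genes. The bodies of Foxo1 (82.1% and 83.5%) and Foxn3 (80.0% and 81.8%) did not pass the test.

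Gene length went with these values. Of 28 members up to 10 kb, 23 were lower and 1 higher, against 35.9% and 35% of all genes of any length, with medians of 20.9% and 26.5%. Of 26 members over 20 kb, 15 were lower and 6 higher, with medians of 74.5% and 78.8%. At the fixed distance of 1900 bp past the start, the short members had 17.4% and 22.5% and the long ones 26.1% and 21.4%, both below all genes. For the shortest members this bin lies beyond the gene end. The part of gene length in the body values was not tested.

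Members that neighbour each other also shared low values in places. Foxf1 (chr8:121084386-121088144), Foxc2 (chr8:121116171-121118895) and Foxl1 (chr8:121127940-121130644) lie together, and all were called lower upstream, Foxl1 with 20.1% and 16.2%. Foxf2 (chr13:31625816-31631403) and Foxc1 (chr13:31806633-31812476) were both lower in the body, Foxf2 with 22.2% and 22.4%, and so was Foxq1 (chr13:31556134-31560976) beside them. Neighbours are not independent of each other in these counts.

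Set beside other developmental regulators, the 25 Hox bodies tested were all lower, with medians of 22.3% and 29.4%. Of 69 other homeobox genes 63 were lower, against 35.9% of all genes, with medians of 26.3% and 38.3%. The medians of the members were higher than those of either list, and the difference between the lists was not tested.

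HC/CH, the state with hmC facing an unmodified cytosine, was near the background over the families as a whole. In the bodies 9 of 60 members (15%) were called higher in the HC/CH share of calls, against 15.2% of all genes tested, and 16 (26.7%) lower, against 22.6%. The medians were 4.53% and 4.72%, against 4.96% and 4.23%. By Fisher's exact test 9 were higher in both replicates, against 13% of all genes, and 4 lower, against 9.31%. With only the sites covered in both replicates limma called 6 of 55 lower, against 19.9%. The replicates gave a Pearson r of 0.488 over the members, against 0.969 for the modified share.

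**Figure D3:**
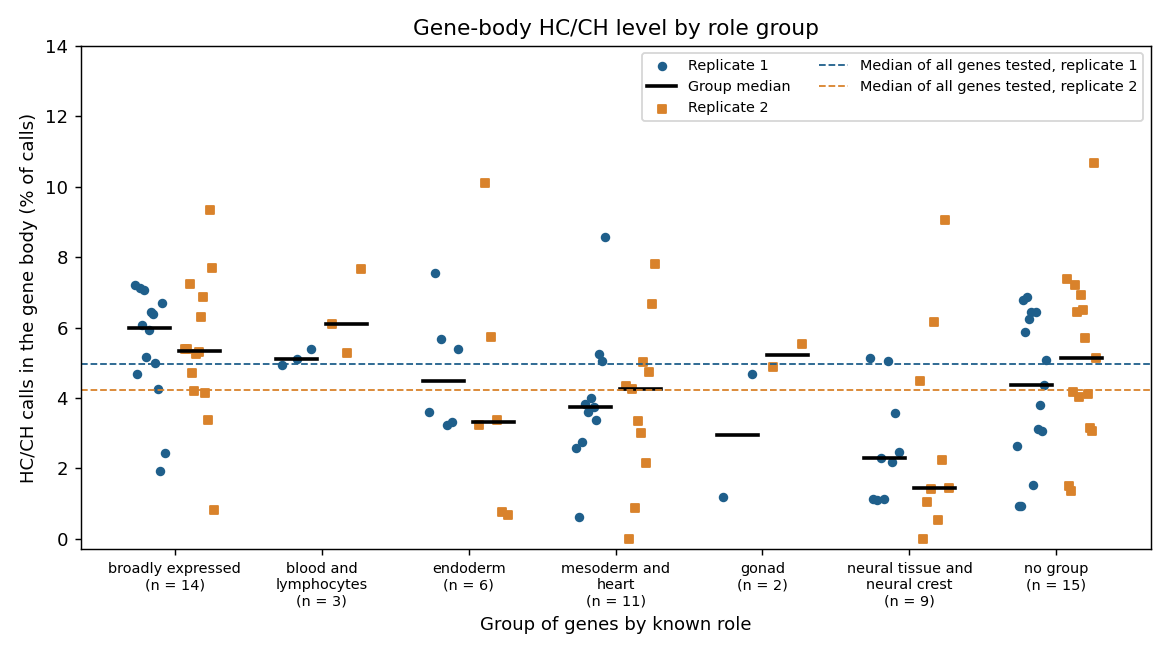
HC/CH calls as a percentage of all calls in the gene body, with a point per gene and replicate (circles, replicate 1; squares, replicate 2), by group of known role. Black bars are group medians and dashed lines the medians of all genes tested. Broadly expressed genes have medians of 6.0% and 5.35% and neural genes of 2.29% and 1.43%.

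By role the calls fell on different sides, as the plot by role group shows. Of 14 broadly expressed genes 6 were higher and 1 (Sox4) was lower, against 15.2% and 22.6% of all genes, and by Fisher's exact test 5 were higher and 0 lower, against 13% and 9.31%. Foxk1, a repressor of autophagy genes, had 7.13% and 7.24% of 6100 and 1451 calls (log odds 0.44 ± 0.09 (SE) from the median gene, adjusted p = 0.000505). Sox13, of the SoxD group, had 6.7% and 7.69% (odds ratio 1.52, adjusted p = 0.00259), and Foxo3, a stress-response factor, 6.37% and 6.86% (odds ratio 1.41, adjusted p = 0.00166). Foxo1 had 6.43% and 6.29%, Foxj2 7.21% and 5.39% and Foxn3, a checkpoint factor, 5.92% and 5.3%. Both replicates of these 6 genes exceeded the median gene. No test was made between the role groups. All 6 higher genes are over 20 kb long. By length alone, limma called 7 of 26 members over 20 kb higher and 6 lower. Of 28 members up to 10 kb it called 0 higher (0 at an unadjusted p under 0.05) and 10 lower. The shares of all genes of any length were 15.2% and 22.6%, and 20.2% were higher at an unadjusted p under 0.05. By Fisher's exact test 8 and 4 of the long members and 0 and 0 of the short ones were called, against 13% and 9.31%. The part of gene length in these calls was not tested.

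The other members called higher were Foxa3, Foxp4 and Foxn4. Foxa3, a liver factor, had the highest mean with 7.55% and 10.1% (adjusted p = 0.0294), on 80 and 34 sites. Foxp4 had 6.44% and 6.93% (adjusted p = 0.00372) and Foxn4, a factor of retinal progenitors, 6.87% and 6.43%. Tbx6 with 8.57% and 7.79% and Tbx10 with 4.38% and 10.7% ranked next by mean and did not pass the test (adjusted p = 0.133 and 0.934).

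Of the neural list 5 of 9 genes were lower in HC/CH, including Foxd3, Foxp2, Sox9 and Sox21, against 22.6% of all genes. Among these genes limma called 0 higher, against 15.2% of all genes, and 0 at an unadjusted p under 0.05, against 20.2%. Fisher's exact test called 1 lower, a share close to the 9.31% of all genes, and 0 higher, against 13%. Foxn4, called higher above, has neural roles but is not in this list. Foxd3 had 1.13% and none of 65 calls, which allows up to 4.62%. Foxp2 had 2.29% and 1.4% of 26720 and 4492 calls (log odds -0.95 ± 0.07 (SE) from the median gene, adjusted p = 9.54e-09). Unlike Foxd3, Foxp2 was above the median gene in modified share, so a low modified share did not accompany its low HC/CH level. Sox1 had 1.13% and 6.15%, with replicates on opposite sides of the median gene, and was not called.

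In the mesoderm and heart list 4 of 11 genes were lower, against 22.6% of all genes, and limma called 0 higher, against 15.2%. At an unadjusted p under 0.05 it called 0 higher, against 20.2%. Fisher's exact test called 1 lower, a share close to the 9.31% of all genes, and 0 higher, against 13% of all genes. Foxc2 had the lowest mean of all members, with 0.63% and none of 56 calls (up to 5.36%). Tbx20 had 3.37% and 2.15%, Tbx1 3.83% and 0.872% and Tbx15, a factor of limb and skeleton, 3.59% and 3.35%. The remaining lower genes were Foxe1 (0.931% and 1.37%), Sox6 (3.06% and 3.07%), Sox5 (3.8% and 3.14%), Gata6 (3.23% and 3.39%), Sox17 and Foxd4.

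Some hemimethylated sites are read as HC/CH, and this rate differed between the libraries. On synthetic duplexes of known state, 3.49% of MC calls were read as HC in replicate 1 and 0.615% in replicate 2. After correction with the rates of the same replicate, all 9 higher and all 16 lower genes stayed on their side of the corrected median gene (4.49% and 4.22%) in both replicates. Corrected values were 6.83% and 7.34% for Foxk1 and 1.66% and 1.25% for Foxp2.

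Paralogues differed in HC/CH. Among the Foxp genes, Foxp4 had 6.44% and 6.93%, Foxp1 4.98% and 4.13% and Foxp2 2.29% and 1.4%, an order that both replicates gave. Among the SoxD genes, Sox13 was called higher while Sox5 and Sox6 were called lower. No test was made between paralogues.

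**Figure D4:**
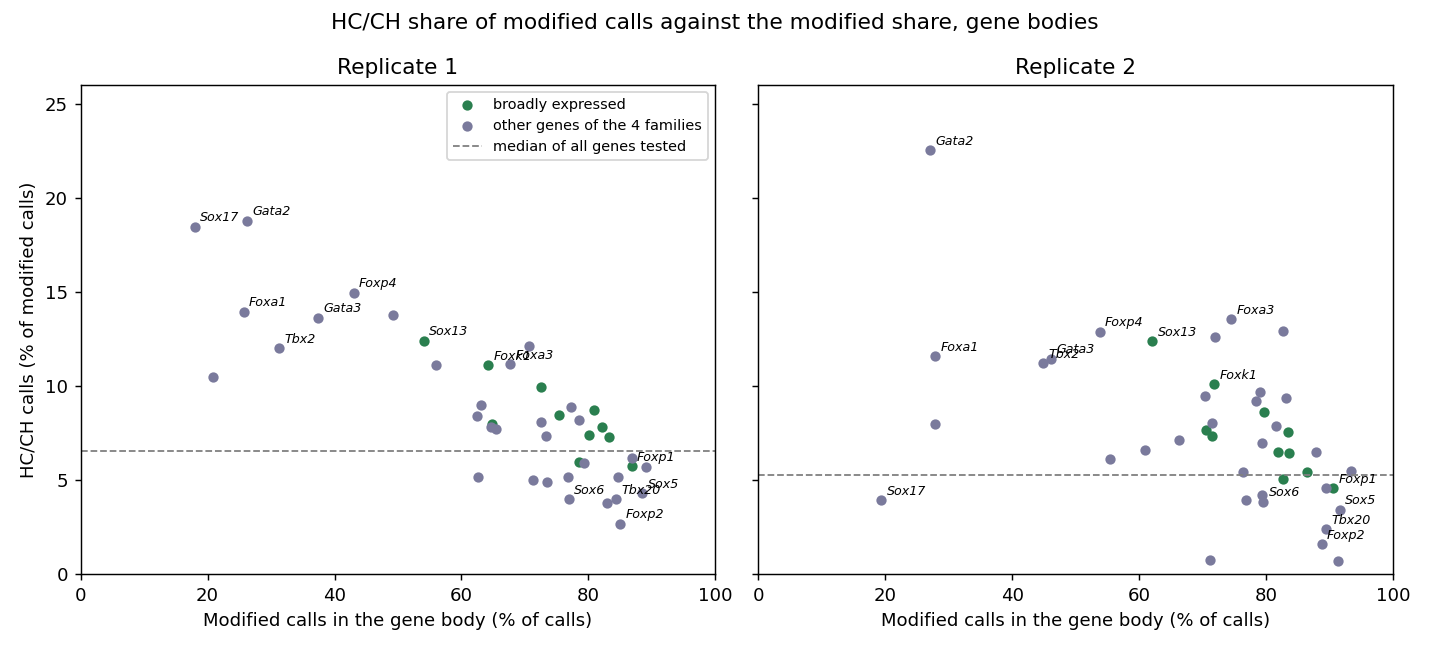
HC/CH calls as a percentage of modified calls against the modified share of all calls in the gene body, for the 43 genes with enough modified calls, in replicate 1 (left) and replicate 2 (right). Green points are broadly expressed genes, grey points the other members, and the dashed line is the median of all genes tested (6.53% and 5.28%). Gata2 lies highest in both panels, and Foxp2 lies at 2.69% and 1.58%.

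Regions with few modified calls can hold few HC/CH calls, so HC/CH was also taken as a share of modified calls. Of 43 bodies with at least 50 modified calls in each replicate, 17 (39.5%) were higher, against 25% of all genes tested, and 7 (16.3%) lower, against 27.9%. The medians were 7.97% and 7.13%, against 6.53% and 5.28%. As the scatter of both shares shows, genes with less modification had more of it in HC/CH. Spearman's rho over the 43 genes was -0.76 in replicate 1 and -0.51 in replicate 2, a description in which both measures share their calls.

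Gata2, Foxp4, Foxa1 and Gata3 had the highest means. Gata2 had 18.8% and 22.5% (log odds 1.28 ± 0.19 (SE) from the median gene, adjusted p = 0.000573), and Foxp4 had 15% and 12.9% (odds ratio 2.54, adjusted p = 6.63e-05). Foxa1 had 14% and 11.6% and Gata3 13.6% and 11.4%. All 4 bodies were called lower in modified share. Of the broadly expressed genes 6 of 11 were higher, and of the endoderm list 3 of 6 (Foxa1, Foxa3 and Gata4), against 25% of all genes. Of the neural list 0 of 4 were higher and 1 lower (0 higher at an unadjusted p under 0.05 in limma and 0 by Fisher's exact test). Of the mesoderm and heart list 2 of 7 were higher and 2 lower, with medians of 7.82% and 7.13%. Of all genes 25% were higher and 27.9% lower, with 28.5% higher at an unadjusted p under 0.05 and 21.1% by Fisher's exact test. Sox17 had 18.5% and 3.92%, with replicates on opposite sides of the median gene.

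The lower genes were Foxp2, Tbx20, Gata5, Sox5, Sox6, Tbx15 and Foxp1. Foxp2 had 2.69% and 1.58% (odds ratio 0.342, adjusted p = 1.58e-05), Tbx20 3.99% and 2.41% (odds ratio 0.549, adjusted p = 0.00109) and Sox5 4.29% and 3.43% (odds ratio 0.63, adjusted p = 6.63e-05). Sox7 had 6.19% and 0.73% and did not pass the test (adjusted p = 0.256). For comparison, all 12 Hox bodies with enough modified calls were higher, with medians of 17.4% and 13.9%, and 26 of 41 other homeobox genes, with medians of 12.3% and 9.59%, against 25% of all genes.

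Upstream of the start, limma called 0 of 60 members higher in the HC/CH share of calls, against 0.669% of all genes tested, and 2 (3.33%) lower, against 6.03%. At an unadjusted p under 0.05 6 were higher and 7 lower, against 8.01% and 14.3% of all genes. Fisher's exact test called 0 in both directions, against 0.556% higher and 0.358% lower. The lower genes were Foxo3 (1.91% and 1.04%) and Foxi1, with 1.74% and none of 96 calls (up to 3.12%).

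Of modified calls upstream, 6 of 40 members (15%) were higher in HC/CH, against 4.22% of all genes tested, and 2 (5%) lower, against 6.18%. The medians were 8.24% and 8.11%, against 7.14% and 5.77%. Of the higher genes Foxf1 lay farthest from the median gene, with 26.4% and 30.5% (log odds 1.65 ± 0.27 (SE) from the median gene, adjusted p = 0.00734). Gata6 had 15.9% and 18.8%, Foxl2, an ovarian factor, 16.3% and 16.9%, and Foxa1, Sox7 and Tbx15 were also higher. Foxi1 (log odds -1.70 ± 0.31 (SE) from the median gene, adjusted p = 0.01) and Foxq1 were lower. With only the sites covered in both replicates, limma called 0 of 33 members in either direction, as it did for all 7226 genes then tested (0% higher and 0% lower). Of the members, 12 were higher and 3 lower at an unadjusted p under 0.05, against 11.6% and 14.1% of all genes, and 2 were higher and 0 lower by Fisher's exact test, against 1.18% and 0.0692%.

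Hemimethylation in the bodies lay close to that of other genes. Of 43 members 9 (20.9%) were higher in the MC/CM share of modified calls, against 13.2% of all genes tested, and 5 (11.6%) lower, against 11.6%. The medians were 17.1% and 18.2%, against 16.4% and 17.4%. By Fisher's exact test 1 was higher in both replicates, against 3.55% of all genes, and 2 were lower, against 3.32%.

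Sox6 (19.5% and 19.6%, adjusted p = 6.45e-10), Foxp2 (18.4% and 19.1%), Tbx20 (19% and 20.1%) and Tbx15 (19.5% and 19.9%) were higher in MC/CM and lower in HC/CH. Sox13 (12.4% and 17%), Foxj2 (13.7% and 14.9%) and Foxn3 (15.4% and 16.2%) were lower in MC/CM and higher in HC/CH. Both states are shares of the same modified calls, so a rise of either lowers the room for the other. Sox5, unlike these genes, was lower in both states. Foxr1 was also lower in MC/CM, and Foxj3, Sox17, Sox21, Sox30 and Tbx18 were higher.

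In the 6 members over 100 kb the level could be followed along the gene. Sox6 (chr7:115470872-116038796) had 19.5% and 23.7% modified calls between 1 and 10 kb from its start and 79.4% and 82.4% beyond 50 kb. Tbx15 (chr3:99240381-99354259) had 31.8% and 35.5% and then 89.6% and 92.2%. Foxp2 (chr6:14901349-15441977) was even, with 82.8% and 79.7% near the start and 85% and 88.8% beyond 50 kb. Sox5 had 88.9% and 93.8% and then 88.3% and 91.5%, Foxn3 75.1% and 78.1% and then 79% and 80.9%, and Foxp1 67.2% and 86.2% and then 86.9% and 90.6%, so that the other 4 genes differed less along their length than Sox6 and Tbx15. The stretch near the start holds 144 and 53 covered sites in Sox6 and 41 and 11 in Foxp2.

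The HC/CH share of modified calls changed with distance in Sox6, from 17.6% and 15.1% to 3.82% and 3.54%, and in Tbx15, from 20.8% and 9.86% to 3.01% and 2.75%. In Foxp2 it stayed low, with 3.88% and 2.13% and 2.7% and 1.61%. It was also lower beyond 50 kb in Foxp1, from 9.92% and 11% to 5.75% and 4.44%, and in Sox5, from 7.54% and 3.96% to 4.23% and 3.41%. In Foxn3 the replicates went opposite ways, from 5.34% and 8.05% to 7.86% and 6.72%. These values are descriptions, with no test along the gene.

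In the members and the 5 kb before their starts, 303 windows of 1 kb had at least 8 sites and 40 calls in each replicate, and their median HC/CH share of calls was 4.0% and 3.51%. The highest lies in an intron of Sox5 (chr6:144299001-144300000), with 16.2% and 13.1% of 142 and 84 calls. The next lies in Foxn3 and overlaps an exon (chr12:99330001-99331000), with 14.9% and 13%. The third overlaps an exon of Tbx5, the T-box gene of heart and forelimb (chr5:119840001-119841000), with 4.62% and 21.3%, and so rests on replicate 2. The windows were picked as the highest, and no test was made of them. The Sox5 window stands in a gene whose HC/CH level as a whole was called lower. Its 250 bases with the most CpG sites are shown as the most CpG-rich stretch of the highest window, with CpG sites in capitals (GRCm38).
Sox5, chr6:144299041-144299290, plus strand: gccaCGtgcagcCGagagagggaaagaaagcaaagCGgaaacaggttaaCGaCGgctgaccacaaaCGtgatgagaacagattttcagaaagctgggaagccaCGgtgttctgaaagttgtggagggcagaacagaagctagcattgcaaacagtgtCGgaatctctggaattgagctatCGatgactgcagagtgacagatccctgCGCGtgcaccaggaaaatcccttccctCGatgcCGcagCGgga
This stretch holds 14 CpG sites, of which replicate 1 covered 6 and replicate 2 covered 5. At these sites 15 of 42 calls were HC/CH in replicate 1 and 4 of 30 in replicate 2.

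In HC/CH calls of the member bodies, hmC lay on the coding strand at rates of 50.3% and 50.4%. In MC/CM calls, mC lay on the coding strand in 48.9% and 48.3%. Neither state leaned far to a strand.

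The states with hmC facing mC or hmC are given without a test, because the libraries misread them unequally. On the synthetic duplexes the rate at which MM was read as HM was 2.26% in the first library against 0.233% in the second. Rates were averaged over the strands, so those for MH are the same by construction. The median HM/MH share of body calls was 3.51% and 2.24% as called and 1.42% and 2.07% after correction, against corrected medians of 1.59% and 2.29% over all genes. The median HH share was 0.383% and 0% as called and 0% in both replicates after correction. Negative corrected values were set to 0, and MM was read as HH at 0.709% in replicate 1 and 0.0117% in replicate 2. The corrected 0% is thus not a measured absence of HH.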

How the data were processed

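CpG-state tables of 2 E14 libraries, from separate passages, were analysed. The authors trimmed reads with cutadapt 4.6, used BSBolt for alignment to GRCm38 and Picard 3.1.1 for duplicate removal, called states per read pair, and discarded CpG sites under 5 calls or in blacklisted regions. The deposited counts are calls per site and state, not normalized. The deposited percent column, count over depth, was not used.

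Counts were summed per gene and region. Empirical log odds (0.5 added) were centred on the median gene of each replicate, and the intercept was tested with limma 3.58.1 (R 4.3.3) with Benjamini-Hochberg adjustment over all genes tested. Weights combined the binomial variance with a between-replicate variance, which was added after a test on simulated data because binomial weights alone made too many false calls. In the simulation at most 0.159% of unchanged genes were called (HC/CH share of body calls, 16590 genes), and genes shifted by 1 on the log odds scale were called in 32% (HC/CH share of upstream calls, 10605 genes) to 100% of cases (modified share upstream). The simulated noise between replicates was the same for every measure and smaller than the fitted spread outside the bodies. That spread (SD of log odds) was 0.470 for promoters and 0.259 to 0.292 for the upstream measures, at which no rates were simulated. The p-values rest on the spread between 2 passages of 1 line, pooled over all genes. A gene's own gap between replicates weighs little in them. On sites covered in both replicates the fitted SD for the modified share was 0.187 at promoters, 0.154 upstream and 0.0683 in bodies. Over all covered sites it was 0.470, 0.292 and 0.151. The part of site coverage in this spread was not tested. Limits for counts of 0 (3 calls) cover counting error only. Corrected values invert the call rates of the synthetic duplexes in the same library, with negative results set to 0 and no rescaling.

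Named genes were the 4 highest and 4 lowest members for modified share (promoter, body) and for HC/CH share of calls and of modified calls (body), a set standing for tissues, and the 3 windows with most HC/CH. Other genes were named after their values were seen, and 1 member, kept in the counts and medians, is not reported by name here. The members, lists and tests were chosen with earlier results of these data known. Alternatives were other site filters, promoter definitions, correction, per-site means, Fisher's exact test (each gene against the pooled calls of all other genes) and leaving out a replicate. Python 3.11.15, NumPy 2.4.6, pandas 2.3.3, SciPy 1.17.1 and Matplotlib 3.10.9 were used.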

Additional observations from a re-analysis of the deposited data

How the results depend on the processing

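Of 174 values recomputed under alternatives, 115 stayed within the replicate spread or within 1.5 times the count and 59 moved by more. Stricter site filters left fewer genes to test, and otherwise the cause was not tested. Counts are of members called, with the report's count and the share of all genes then called in brackets. Levels are medians over members of the replicate mean. With a minimum of 7 calls per site, 0 higher (8, 14.6%) and 0 lower (13, 16.5%) of 4 were called for the modified share at promoters, 1 higher (8, 33.2%) and 6 lower (35, 34%) of 11 for the modified share upstream, 18 lower (41, 29.8%) of 37 for the modified share in bodies, 0 lower (2, 0.228%) of 11 for the HC/CH share upstream, 6 lower (16, 19%) of 37 for the HC/CH share in bodies, 0 higher (6, 0%) and 0 lower (2, 0%) of 4 for the HC/CH share of modified calls upstream and 4 higher (9, 10.4%) and 2 lower (5, 8.46%) of 33 for the MC/CM share of modified calls in bodies. The level was then 6.95% (8.93%) for the modified share at promoters, 42% (56.5%) for the modified share upstream, 74.5% (67.3%) for the modified share in bodies, 5.03% (4.63%) for the HC/CH share in bodies and 9.23% (8.18%) for the HC/CH share of modified calls upstream. With only the sites covered in both replicates, 6 lower (13, 32.8%) of 32 were called for the modified share at promoters, 6 lower (16, 19.9%) of 55 for the HC/CH share in bodies, 0 higher (6, 0%) and 0 lower (2, 0%) of 33 for the HC/CH share of modified calls upstream and 5 higher (9, 8.07%) and 3 lower (5, 7.05%) of 41 for the MC/CM share of modified calls in bodies. The level was then 12% (8.93%) for the modified share at promoters and 53.2% (56.5%) upstream. With a minimum of 20 CpG sites, 1 lower (13, 25.4%) of 14 were called for the modified share at promoters, 2 higher (8, 38.4%) and 14 lower (35, 39.3%) of 20 for the modified share upstream, 1 higher (0, 5.42%) of 20 for the HC/CH share upstream, 10 lower (16, 22.6%) of 48 for the HC/CH share in bodies and 0 lower (2, 12.2%) of 13 for the HC/CH share of modified calls upstream. The level was then 34.6% (56.5%) for the modified share upstream, 4.94% (4.63%) for the HC/CH share in bodies and 14.1% (8.18%) for the HC/CH share of modified calls upstream. With promoters of 500 bp either side, 5 higher (8, 21.9%) and 0 lower (13, 14.8%) of 14 were called for the modified share at promoters, 11 higher (7, 35%) of 67 for the modified share in bodies and 2 higher (6, 1.09%) and 1 lower (2, 2.56%) of 44 for the HC/CH share of modified calls upstream. The level was then 3.16% (8.93%) for the modified share at promoters, 51.3% (56.5%) for the modified share upstream, 61.1% (67.3%) for the modified share in bodies, 4.44% (4.63%) for the HC/CH share in bodies and 9.15% (8.18%) for the HC/CH share of modified calls upstream. With a promoter around every transcript start, 39 lower (13, 33.4%) of 58 were called for the modified share at promoters. Its level was then 17.6% (8.93%). By Fisher's exact test, 18 higher (8, 47.9%) of 60 were called for the modified share upstream, 0 lower (2, 0.358%) of 60 for the HC/CH share upstream, 4 lower (16, 9.31%) of 60 for the HC/CH share in bodies, 3 higher (6, 2.04%) and 0 lower (2, 0.121%) of 40 for the HC/CH share of modified calls upstream, 4 lower (7, 12.5%) of 43 for the HC/CH share of modified calls in bodies and 1 higher (9, 3.55%) and 2 lower (5, 3.32%) of 43 for the MC/CM share of modified calls in bodies. With corrected calls the level was 4.37% (4.63%) for the HC/CH share in bodies, 7.92% (8.18%) for the HC/CH share of modified calls upstream, 15.9% (17.6%) for the MC/CM share of modified calls in bodies and 1.74% (2.87%) for the HM/MH share in bodies. With per-site means the level was 4.43% (4.63%) for the HC/CH share in bodies and 8.86% (8.18%) for the HC/CH share of modified calls upstream. Leaving out either replicate in turn gave medians of 4.53% to 4.72% for the HC/CH share in bodies, 4.39% to 5.14% for the HC/CH share upstream, 7.13% to 7.97% for the HC/CH share of modified calls in bodies, 8.11% to 8.24% for the HC/CH share of modified calls upstream, 0% to 0.383% for the HH share in bodies, 2.24% to 3.51% for the HM/MH share in bodies, 17.1% to 18.2% for the MC/CM share of modified calls in bodies, 63.7% to 70.8% for the modified share in bodies, 7.86% to 10.0% for the modified share at promoters, 54.7% to 58.3% for the modified share upstream. These levels have no test, since 1 replicate leaves no spread. No paired analysis was possible in 1 group.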
